A study of Rattus norvegicus with 2 samples.

Results

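The genes of protein kinase C, a family of serine and threonine kinases, were followed in 2 single colonies grown from C6, a rat glioma cell line widely used as a model of astrocytic tumours. Of the 18166 genes that could be named on the array, 8 encode protein kinase C isoforms, and all 8 were taken, each through the 1 array feature that names it. They were chosen with earlier results of these data known, Prkcb being a gene with a very large difference, so their levels are given as a description and support no test. The groups were colony No.4 and colony No.8, with 1 array each. Both were titled undifferentiated, were grown in DMEM with 10% serum, and carried the same treatment text naming CHIR99021 (20 µM), an inhibitor of the kinase GSK3, and forskolin (100 µM), an activator of adenylyl cyclase, over 35 days. Whether the RNA was taken before or after that treatment is not stated, and it does not separate the groups. Each colony is a single clonal isolate measured once, so no error, standard deviation or p-value could be computed, and a difference between colonies cannot be told apart from a difference between cultures or hybridizations.

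Protein kinase C enzymes relay signals from receptors that activate phospholipase C. The lipase releases diacylglycerol, which stays in the membrane, and inositol trisphosphate, which opens calcium stores. Conventional isoforms, among them alpha and beta, need both calcium and diacylglycerol. A second class, called here calcium-independent, answers to diacylglycerol without calcium (delta, epsilon, eta and theta), and atypical isoforms (iota and zeta) answer to neither and act through protein partners in cell polarity. In glioma, the alpha form is known as a kinase that promotes growth, and phorbol esters, which mimic diacylglycerol, are classic agents for stimulating the family in C6 cells.

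Levels are the deposited values, taken as log2 units. The floor was set at 4.33, the median over every deposited value, and a gene at or above it was called past the floor. A stricter guide to background was 5.67, the 99th percentile of the levels of 1184 olfactory receptor genes, a family not used by most tissues. Features differ in how strongly they bind their target, so levels were compared between colonies and not between isoforms. The 2 arrays were on one scale (medians 4.34 in No.4 and 4.31 in No.8), and the median difference over the 11069 genes past the floor in at least 1 colony was 0.04. A total of 1320 features (3.60%) had exactly the same value on both arrays. Of the 7 glial and glioma markers, S100b (8.24 in No.4 and 8.46 in No.8), Vim (12.57 and 12.60), Nes (9.54 and 9.94) and Sox2 (9.08 and 8.44) were past the floor in both colonies. Gfap was at 4.11 and 5.17, and the astrocyte genes Aqp4 and Slc1a3 were below the floor in both.

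The colonies differed in their isoform make-up by the beta isoform. Colony No.4 had 4 of the 8 isoforms past the floor, Prkca, Prkcd, Prkce and Prkci, and colony No.8 had the same 4 and Prkcb, which made 5. Among all named genes, 58% in No.4 and 59.2% in No.8 were past the floor. The genes Prkch, Prkcq and Prkcz were below it in both. Counted from 5.67, Prkce dropped out as well, which left 3 isoforms in No.4 and 4 in No.8. Of the 5 isoforms past the floor in at least 1 colony, 1 differed by at least 2-fold (1 log2 unit). Over all genes past the floor 5.47% did, 2.91% higher in No.8 and 2.57% higher in No.4. The isoforms were chosen with this contrast known, so nothing is read from their count against that share.

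**Figure D1:**
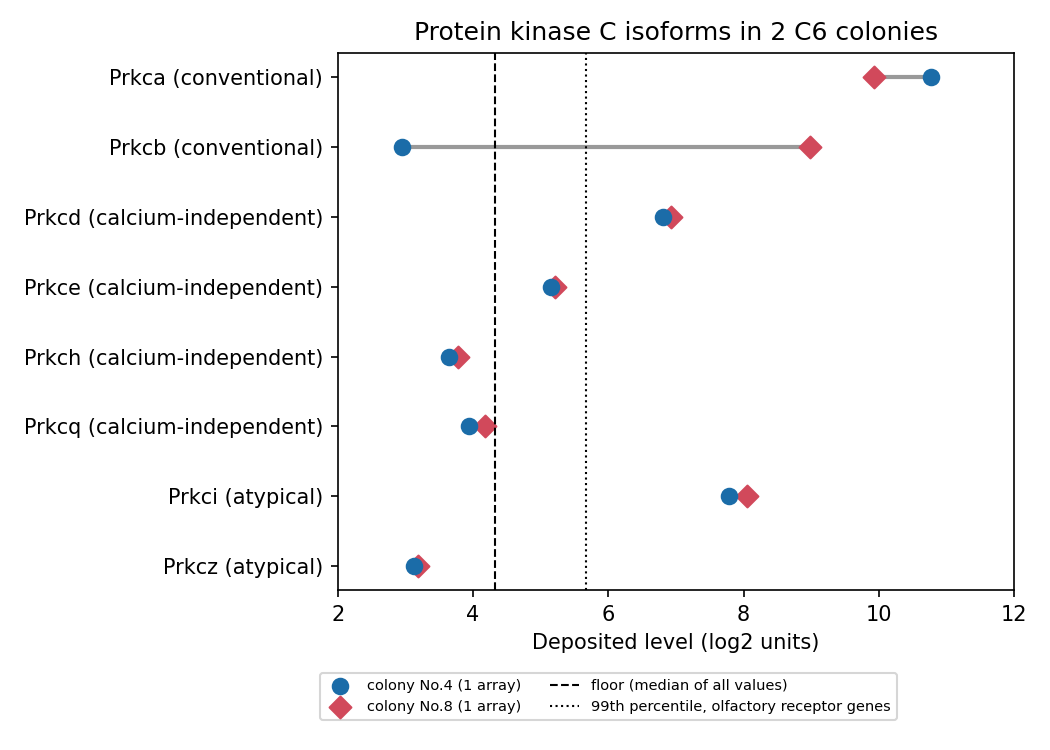
Deposited level (log2 units, horizontal axis) of each protein kinase C isoform in colony No.4 (circles) and colony No.8 (diamonds), 1 array each, with the floor of 4.33 (dashed) and the 5.67 guide from olfactory receptor genes (dotted). Prkcb crosses both lines between the colonies, Prkca is higher in No.4, and the other 6 isoforms lie close together.

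Prkcb, the conventional beta isoform, which is abundant in brain neurons, B cells and microglia, had a level of 2.95 in colony No.4, against 8.98 in colony No.8. It was thus below the floor in one colony and well past 5.67 in the other. The difference of 6.03 was the largest of the 11069 genes past the floor. A level below the floor cannot be told from background, so the deposited ratio of 65.5-fold is not a measured fold. With the floor as the lower level, the excess of Prkcb in No.8 was at least 25.1-fold, which gave it rank 2 by size, after Postn. With 5.67 as the lower level it was at least 9.90-fold, at rank 3. Adding 64 on the linear scale, which damps differences at low signal, left a difference of 2.99. The feature stands for the whole gene, so the splice forms beta I and beta II were not separated. In RNA from a whole colony, fewer cells with a transcript and less transcript per cell cannot be told apart.

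The other conventional isoform went in the opposite direction. Prkca, the alpha form, had a level of 10.77 in colony No.4, against 9.93 in colony No.8, a difference of -0.84 (1.79-fold higher in No.4). It was past both background guides in each colony and did not reach 2-fold. A difference at least as large, in either direction, was found for 8.38% of the genes past the floor. Across the scaling alternatives its difference lay between -0.88 and -0.79. The 2 diacylglycerol- and calcium-dependent isoforms measured thus differed in opposite directions, and without replicates it is not known whether the Prkca difference exceeds the spread between cultures.

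The calcium-independent isoforms were nearly level between the colonies. Prkcd, the delta form, often linked to apoptosis, was at 6.81 in No.4 and 6.92 in No.8 (difference 0.11). Prkce, the epsilon form, linked to cell growth and motility, was at 5.16 and 5.22 (0.06), past the floor but under 5.67 in both. Prkch, the eta form, best known in epithelia, was at 3.64 and 3.78, and Prkcq, the theta form of T cells and muscle, at 3.94 and 4.18. Both genes were below the floor in each colony, so no fold is given for them. As many as 77.8% of genes past the floor differed by at least as much as Prkcd, and 88.1% by at least as much as Prkce.

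The atypical pair split at the floor in the same way in both colonies. Prkci, the iota form, a polarity kinase described as an oncogene in several tumours, had a level of 7.78 in No.4, against 8.05 in No.8 (0.27, or 1.20-fold). Its difference was matched or exceeded by 49.6% of the genes past the floor. Prkcz, the zeta form, whose gene also gives rise to the brain kinase PKMzeta, was at 3.12 and 3.19, below the floor in both. Leaving Prkca and Prkcb aside, the differences of the other 6 isoforms ran from 0.06 to 0.27. The median over all 8 isoforms was 0.12, beside 0.03 over all genes measured. Each of the 7 isoforms other than Prkca was higher in No.8 in the deposited values and under every scaling tried, but 6 of these differences were small, and 3 of those 6 belong to genes below the floor.

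**Figure D2:**
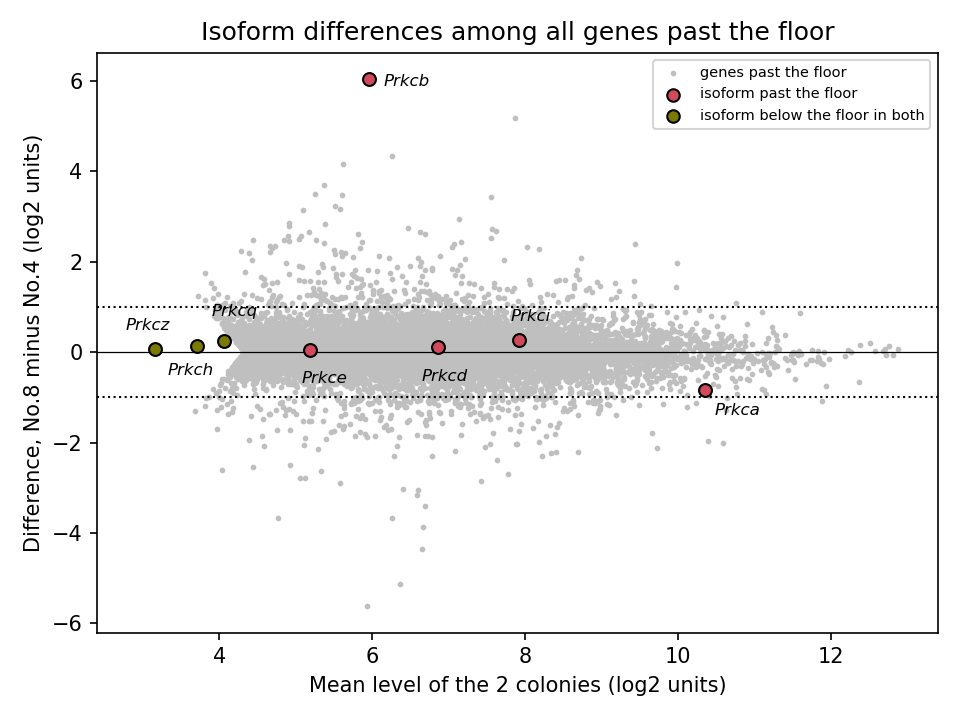
Difference between the colonies (No.8 minus No.4, log2 units) against the mean level of the 2 colonies (log2 units) for the 11069 genes past the floor (grey) and the 8 isoforms (large points), with dotted lines at 2-fold. Prkcb lies above every other gene at 6.03, Prkca lies below zero at -0.84 among bright genes, and the remaining isoforms lie inside the band of most genes.

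Markers of cell types that are rich in Prkcb were examined beside its difference. All 6 microglia and macrophage markers (Ptprc, Itgam, Cx3cr1, P2ry12, Aif1 and Csf1r) were below the floor in both colonies, between 2.77 and 3.53 in No.4 and between 2.71 and 3.70 in No.8. Their summed linear level was 57.4 in No.4 and 56.7 in No.8. Of the 5 lymphocyte markers measured, 2 were past the floor in No.4 and 1 in No.8. These were the B cell gene Cd79a (5.18 in No.4, difference -0.18), and in No.4 the T cell kinase gene Lck (4.47 and 4.25). The summed level of the 5 was 79.7 and 74.8, and the other 3, Cd3e, Cd2 and Ms4a1, were below the floor in both. Of 6 neuronal markers, 3 were past the floor in each colony, with a summed level of 499 in No.4 and 291 in No.8. Gad1, which encodes the enzyme that makes GABA, was at 8.66 and 7.62, while Tubb3, Snap25 and Syt1 were below the floor in both. Without Gad1, the other 5 neuronal markers summed to 94.0 in No.4 and 94.1 in No.8. The part of these cell types in the Prkcb difference was not tested.

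The endothelial and oligodendrocyte markers were near or below the floor. None of the 3 endothelial markers measured was past the floor in any colony, and of 3 oligodendrocyte markers measured 2 were, Mbp (4.93 and 4.89) and Mog (4.48 and 4.38), all under 5.67. Mbp has a second, dimmer feature, which differed by 0.48 towards No.8. The summed linear levels were 44.4 and 44.1 for the endothelial markers and 69.4 and 65.4 for the oligodendrocyte markers.

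The difference at Prkcb was not shared by the genes beside it. In RefSeq gene order, the 5 measured genes on one side were Palb2, Dctn5, Plk1, Ern2 and Chp2, and on the other side Cacng3, Rbbp6, Tnrc6a, Slc5a11 and Arhgap17. Their differences lay between -0.24 (Chp2) and 0.51 (Plk1, the mitotic kinase, at 9.22 and 9.72), with a median of 0.16. The nearest neighbours, Chp2 (4.02 and 3.78), a calcineurin B homologue, and Cacng3 (3.82 and 4.00), a calcium channel gamma subunit, were below the floor in both colonies. Of the 10 genes, 6 were past the floor and 0 of them differed by 2-fold. With 10 genes on each side these counts were 13 of 20 and 0.

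**Figure D3:**
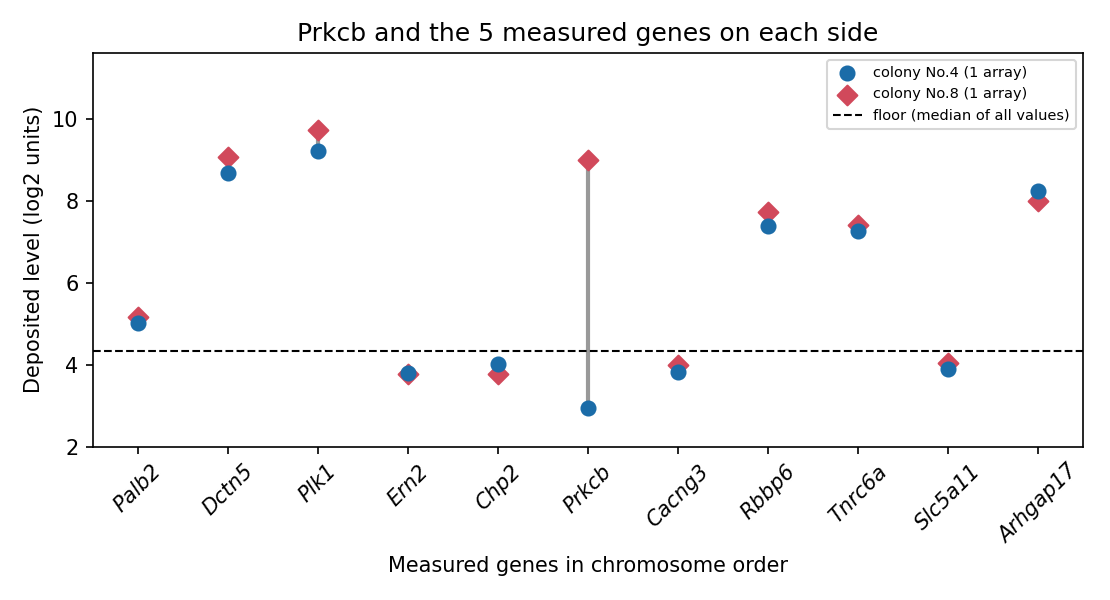
Deposited level (log2 units, vertical axis) of Prkcb and the 5 measured genes on each side in chromosome order, in colony No.4 (circles) and colony No.8 (diamonds), 1 array each, with the floor of 4.33 (dashed). Prkcb alone is on opposite sides of the floor in the 2 colonies, and the 10 neighbours differ by -0.24 to 0.51.

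With 2 arrays, likeness of pattern is only likeness of the difference. Prkcb had the largest difference, so the genes nearest to it can only be those with the next largest differences towards No.8. They lay 0.87, 1.70 and 1.87 log2 units away from it. The 3 genes whose difference was nearest to that of Prkcb were Postn, which encodes the matrix protein periostin (5.17), Cd55, a complement inhibitor (4.34), and the cancer-testis gene Ct55 (4.16). Cd55 (4.09 in No.4) and Ct55 (3.54 in No.4) were, like Prkcb, below the floor in colony No.4, while Postn was not.

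The region upstream of the start site was read for the 6 isoforms that RefSeq promoter sequences matched, Prkca, Prkcd, Prkce, Prkcq, Prkci and Prkcz. The 250 bases before the start are shown for Prkca, the conventional isoform present in both colonies, and for the atypical pair, of which one gene was past the floor in both colonies and the other in none. They are written 5′ to 3′ with GGGCGG, the GC box bound by Sp1-type factors, in capitals on either strand (CCGCCC on the other), where overlapping matches run together.
Prkca, GRCr8 chr10:93787328-93787577, minus strand: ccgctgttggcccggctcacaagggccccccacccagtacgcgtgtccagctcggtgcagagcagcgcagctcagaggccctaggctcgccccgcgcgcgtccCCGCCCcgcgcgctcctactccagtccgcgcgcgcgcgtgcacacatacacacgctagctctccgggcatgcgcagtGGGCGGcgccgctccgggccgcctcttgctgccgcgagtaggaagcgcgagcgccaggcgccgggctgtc
Prkci, GRCr8 chr2:114310785-114311034, minus strand: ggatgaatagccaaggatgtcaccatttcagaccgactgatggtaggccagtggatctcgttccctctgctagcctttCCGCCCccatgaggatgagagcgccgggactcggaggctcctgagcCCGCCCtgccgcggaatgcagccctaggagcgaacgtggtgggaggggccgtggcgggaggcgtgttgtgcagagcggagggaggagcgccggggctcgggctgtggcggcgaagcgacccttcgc
Prkcz, GRCr8 chr5:171212675-171212924, minus strand: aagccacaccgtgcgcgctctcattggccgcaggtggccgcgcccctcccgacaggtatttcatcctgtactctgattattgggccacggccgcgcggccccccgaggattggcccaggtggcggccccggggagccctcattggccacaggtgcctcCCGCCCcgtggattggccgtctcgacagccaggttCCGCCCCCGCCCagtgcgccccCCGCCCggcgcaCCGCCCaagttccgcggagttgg
All 6 promoters held GGGCGG, against 30.5% of 33469 promoter sequences of that length and 56.8% of the 9888 that belong to genes past the floor. There were 2 matches in Prkca, 2 in Prkci and 5 in Prkcz. The count of CG dinucleotides was 36 in Prkca, 22 in Prkci and 27 in Prkcz, and between 19 and 36 over the 6, beside a median of 5 over all promoters. GGGCGG was thus present in Prkcq and Prkcz, below the floor in both colonies, as in the isoforms past it. Matches ran from 1 (Prkce and Prkcq) to 5 (Prkcd and Prkcz). No promoter sequence was matched for Prkcb or Prkch, so nothing is read here about the Prkcb difference. Both agents named in the labels act through pathways with a known DNA motif, and phorbol ester response has one too. None of the 6 windows held TGACG, the core of the cyclic AMP response element, TGACTCA, the AP-1 site, or the TCF/LEF motifs CTTTGAA and CTTTGAT, on either strand. Over all promoters of that length, 18.2% held TGACG, 4.05% TGACTCA, 4.68% CTTTGAA and 3.15% CTTTGAT. Among the 9888 of genes past the floor the shares were 27.2%, 3.08%, 3.30% and 2.03%, in the same order. A missing match says only that these letters are not in the window.

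The genes around the isoforms were followed in lists chosen by function. For each list, the members at least 2-fold apart are counted among those past the floor, to be read against the 5.47% of all genes, and the median difference stands beside 0.04 for all genes past the floor. The lists are small, so 1 or 2 genes make up each count.

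Other kinases of the wider family were close to level. Of 5 measured genes, 4 were past the floor, 0 differed by 2-fold, and the median difference was -0.01. The protein kinase D genes Prkd2 (6.82 in No.4 and 6.46 in No.8) and Prkd3 (7.95 and 7.83), which protein kinase C phosphorylates, and the protein kinase N genes Pkn2 (8.03 and 8.13) and Pkn3 (4.95 and 5.22) were past the floor in both colonies. Prkd1 was below it, at 4.05 and 4.06. Among 34 measured kinases of the AGC group outside the family, 30 were past the floor and 1 differed by 2-fold, with a median of -0.01. That gene was Rps6ka2, a ribosomal S6 kinase, at 5.44 and 4.22 (at least 2.16-fold in favour of No.4 with the floor as the lower level, although neither level reached 5.67). The largest differences after it were those of Rps6kb1 (0.68), Grk6 (0.64) and Mastl (-0.61).

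Upstream, in the genes that produce the activating signals, no member reached 2-fold. Of 18 measured genes for Gq proteins, phospholipase C and inositol trisphosphate receptors, 13 were past the floor, with a median of 0.19, which turned to -0.076 with the floor at 6 or 5.67. The largest differences went both ways within one enzyme class. Plcb1, a phospholipase C activated by Gq, was at 7.94 in No.4 and 7.12 in No.8 (-0.82), and its relative Plcb4 was at 6.41 and 7.21 (0.79). Itpr1, an inositol trisphosphate receptor that releases calcium, was at 7.25 and 8.05 (0.80), and Plcd3 at 7.01 and 6.47 (-0.54). Gnaq itself was at 8.91 and 8.84.

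The enzymes that remove or make diacylglycerol held 2 members past 2-fold, 1 in each direction, among 13 past the floor of 17 measured, with a median of 0.03. Lpin1, a lipin that forms diacylglycerol from phosphatidate, had a level of 7.93 in No.4, against 5.64 in No.8 (4.90-fold, and at least 4.79-fold with 5.67 as the lower level). The diacylglycerol kinase gene Dgkh was at 3.97 and 5.53. With the floor as the lower level this was at least 2.30-fold in favour of No.8, but both levels were under 5.67. Other diacylglycerol kinases, which end the signal by phosphorylating the lipid, were split: Dgkg was at 4.72 and 5.56 (0.84), Dgkd at 7.02 and 6.23 (-0.80) and Dgka at 9.16 and 8.38 (-0.78).

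Of the genes for maturation and shut-off of the kinases, 9 were measured, all past the floor, and 1 reached 2-fold, with a median of -0.14. Phlpp1, a phosphatase that removes the hydrophobic-motif phosphate from protein kinase C and Akt, had a level of 8.13 in No.4, against 6.60 in No.8 (2.89-fold). Its relative Phlpp2 was at 6.14 and 6.28. The kinase complex mTORC2, which primes newly made protein kinase C, had members on both sides, with Mtor at 6.67 and 7.61 (0.94) and its partner Rictor at 7.37 and 6.86 (-0.51). Pdpk1, which phosphorylates the activation loop, was at 8.61 and 8.87, and the chaperone gene Hsp90ab1 at 10.36 and 9.80 (-0.56).

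Scaffold and polarity genes stayed under 2-fold. Of 9 measured anchoring genes, 8 were past the floor, 0 reached 2-fold, and the median was -0.18. Rack1, named as a receptor for activated C kinase, was at 11.33 and 11.12. The largest differences in that list were those of Cavin3, a caveolar protein that binds the delta form (-0.58), Pdlim7 (0.55), Akap5 (0.53) and Akap12 (-0.43), the last 2 being anchoring proteins for several kinases. Of the 10 polarity partners of the atypical isoforms, 8 were past the floor, 0 reached 2-fold, and the median was 0.00. Pard6g (0.37), Pard6b (0.35), Pard3b (-0.34) and Pawr (0.33), an inhibitor of the atypical isoforms, differed most.

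Among substrates, 1 of 8 members past the floor, of 12 measured, reached 2-fold, with a median of 0.02. Marcksl1, a relative of the membrane-bound substrate MARCKS, had a level of 6.87 in No.4, against 8.31 in No.8 (2.72-fold). Marcks itself was at 8.21 and 9.19 (0.98), and Add1, which encodes the cytoskeletal protein alpha-adducin, was at 8.26 and 9.24 (0.98), both just under 2-fold. Gap43, the growth cone substrate, was at 5.51 and 5.10, and Add3 at 8.19 and 8.24. The 3 largest differences of this list were thus all higher in No.8, while the median was near zero. A link between these transcripts and Prkcb was not tested. Over substrates with a level of at least 6 in a colony the median was 0.51. That value lies between those 3 genes and Add3 (0.04), Ppp1r14b (-0.004) and Prkcsh (-0.11), and none of these genes had a difference near it.

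Other proteins bind diacylglycerol through the same C1 domain as protein kinase C. The list of them also held a relative, Unc13d, whose protein lacks that domain. In this list, 2 of the 5 genes past the floor, of 9 measured, reached 2-fold, both higher in No.8. The median difference was 0.10 over all 9. Rasgrp3 and Unc13d passed the floor in No.8 only, so the median over the 5 depends on that filter. That median (0.64) was the difference of Unc13d itself, and the median was 0.00 with both levels raised to the floor. Chn2, which encodes the Rac-inactivating protein beta-chimaerin, was at 5.38 in No.4 and 7.27 in No.8. The deposited values differed by 3.70-fold, and Chn2 remained at least 3.02-fold higher in No.8 with 5.67 as the lower level. Rasgrp3, an activator of Ras and Rap that protein kinase C can phosphorylate, was at 3.16 and 5.41. With the floor as the lower level this was at least 2.12-fold in favour of No.8, and neither level reached 5.67. Unc13d was at 4.00 and 4.64, and Rasgrp2 at 4.44 and 4.22.

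The CARD, BCL10 and MALT1 complex, through which protein kinase C beta and theta reach NF-kappaB in lymphocytes, had 6 of 7 measured members past the floor, 0 at 2-fold and a median of 0.05. Malt1 was at 6.38 in No.4 and 5.83 in No.8 (-0.56), Chuk at 7.86 and 7.39 (-0.46), Bcl10 at 6.92 and 7.13 (0.21), and Card10, the form of the scaffold found outside blood cells, at 4.18 and 4.34 (0.16). The last values lie at the floor.

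**Figure D4:**
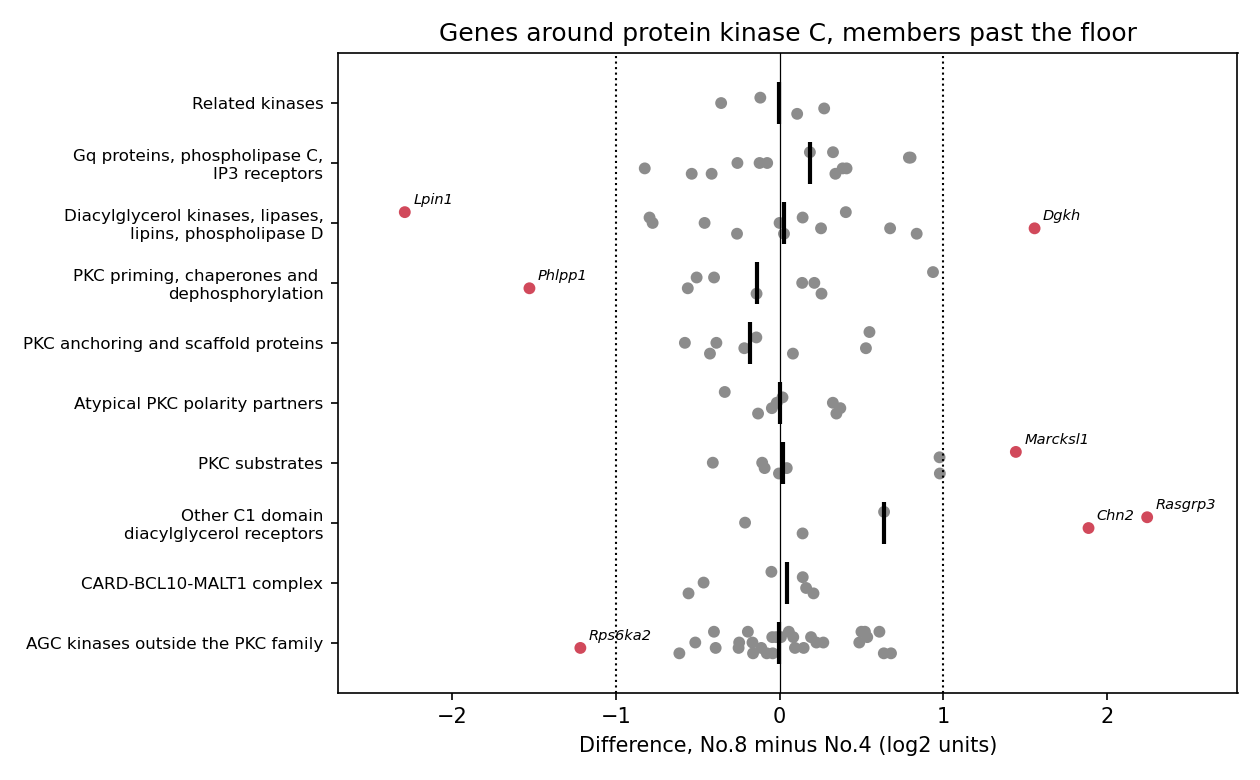
Difference between the colonies (No.8 minus No.4, log2 units) for each member past the floor of 10 gene lists around protein kinase C, with list medians as black bars and dotted lines at 2-fold. Coloured, named points are the 7 genes at least 2-fold apart, 4 higher in No.8 and 3 higher in No.4, and list medians lie between -0.18 and 0.64.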

How the data were processed

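Total RNA of 2 samples was measured on 1 whole-transcript array each, with biotin-labelled sense cDNA, per the labels' protocols. The deposited table gives 1 value per feature and sample. It was used as log2 as deposited by the authors; the scale was inferred because values reach 13.3, and for software, background correction, normalization and summarization the steps are not given in the sources consulted. Features with exactly 1 gene symbol in the platform annotation (18511 of 36685) were kept, and the feature with the highest mean level stood for a gene. The floor, 2-fold counts, medians, neighbours in GRCr8 RefSeq gene order (gene IDs of 18394 features matched) and promoter matches were computed with Python 3.11.15, numpy 2.4.6 and pandas 2.3.3, and a loess with statsmodels 0.14.6. The 2-fold calls were tested on simulated data with little noise and differences set well past 2-fold, and the feature choice on a small made-up example. The other steps were not tested in this way. No probe-level signal was used, so detection is unknown, and the number of arrays limits the precision. Samples were grouped by colony number. Members and lists were chosen with earlier results of these data known. Named were all isoforms and related kinases, up to 4 members of each other list with the largest differences past the floor, members at least 2-fold apart, neighbours of Prkcb, the 3 genes of most similar difference, and cell type markers. Genes outside this rule (Gnaq, Dgka, Phlpp2, Pdpk1, Rack1, Add3, Ppp1r14b and Prkcsh) were named after their values were seen. Alternatives covered scaling, offset, feature choice, floor and fold size. A planned protein sequence comparison was not run, as no protein sequences were used here.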

Additional observations from a re-analysis of the deposited data

How the results depend on the processing

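With 1 array per colony no spread is known, so a difference counted as moved when it shifted by more than 0.26, the interquartile range of the differences divided by 2. No paired analysis was possible because each colony has 1 array and no test was run. The direction of all 8 isoform differences held under centring, quantile normalization, loess and the offset, and Prkcb was the only isoform past 2-fold in these. Each isoform has 1 feature, so the other feature choices could not change it. Its difference was 2.99 with the offset of 64. Without a floor 8 isoforms counted in each colony, and with the floor at the lower quartile 8 did in No.8 and 6 in No.4. At 1.5-fold 2 isoforms differed.

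At 1.5-fold, the counts were 3 for Gq, phospholipase C and receptors, 6 for diacylglycerol enzymes, 2 for priming and dephosphorylation, 3 for substrates and 5 for AGC kinases. At 4-fold, the deposited values counted 1 diacylglycerol enzyme (Lpin1), 1 C1 domain gene (Rasgrp3, below the floor in No.4, with a bound of only 2.12-fold), and 0 in priming, substrates and AGC kinases. With the offset, or with the floor at 6 or 5.67, the counts were 1 for diacylglycerol enzymes, 1 for C1 domain genes and 0 for AGC kinases. Genes near the floor drop out of these counts by construction.

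List medians moved most with the floor. At 6 or 5.67 the median was -0.076 for Gq, phospholipase C and receptors, 0.51 for substrates and 1.01 for C1 domain genes, and at 6 it was -0.26 for diacylglycerol enzymes. For the C1 domain list, Unc13d included, it was 0.15 with the offset and 0.14 with the floor at the lower quartile. It was 0.10 with no floor and 0.00 with both levels raised to the floor. Under the 9 settings that can change a list median, 79 of 90 medians moved by less than 0.26. Of the single genes, Dgkh (0.47), Gad1 (-0.84), Gfap (0.30), Rasgrp3 (0.55) and Rps6ka2 (-0.38) were under 2-fold with the offset, and Gfap also with loess (0.99). With the floor as the lower level, Gfap differed by only 1.79-fold, and both its levels were under 5.67. No gene past 2-fold changed direction under these alternatives.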
